A study of Mus musculus with 6 samples.

Results

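The genes described here are 10 transcripts that mark resident tissue macrophages, found by symbol among the 35673 gene rows of a count table of mouse cornea: Csf1r, Cx3cr1, Itgam, Adgre1, Mrc1, Cd68, Lyz2, C1qa, C1qb and C1qc. All 10 symbols were present, and all 10 passed the filter on low counts. The samples were 6 corneal RNA-seq libraries from male C57BL/6J mice aged 6 to 8 weeks, 3 titled Control and 3 titled Cationorm. Cationorm is an eye drop made of a positively charged oil-in-water nanoemulsion. The protocol shared by all samples describes a model of contact lens dry eye, made with the preservative benzalkonium chloride at 0.1% and lens wear for 6 h a day, followed by saline, hyaluronic acid or Cationorm drops of 5 µL for 14 days. Every library carries the disease-model tag for its condition and the entry wild-type for its treatment, so only the titles separate the groups, and the labels do not say whether the Control animals went through the model.

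Macrophages live in the corneal stroma and at the limbus in the healthy eye, where they clear debris, sample antigen and answer injury. Their survival depends on the receptor Csf1r, which binds the growth factors Csf1 and Il34. The lysosomal proteins Cd68 and Lyz2 serve digestion of engulfed material. C1q, the recognition molecule that starts the classical complement pathway, is assembled from the products of C1qa, C1qb and C1qc, which tissue macrophages make in large part. In whole cornea, fewer macrophages and less RNA per macrophage cannot be told apart.

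The libraries held 32486043 to 39193311 counts. Levels are given in CPM, the count scaled to the library total. The limit that a count of 0 sets, taken as 3 counts, was 0.0765 to 0.0923 CPM across the libraries and covers counting error only. Of all counts between 1 and 20 in the table, 63.9% were even numbers, so a sequenced fragment may have added more than 1 count and these floors may be too low. The labels do not say that replicates came from separate animals, and p-values then measure the scatter among these samples alone, which may be technical. The batch tag gives a single batch for all 6. Markers of other eye tissues differed between libraries. Summed iris and pigment cell markers ranged from 538 to 1333 CPM over the Control libraries and from 1465 to 1785 CPM over the Cationorm libraries, with no overlap. Summed retina markers ranged from 5265 to 7887 CPM and from 1950 to 6485 CPM, and summed lens markers ran from 72.7 CPM in Control 1 to 5620 CPM in Cationorm 3. Summed corneal epithelium markers stayed between 57328 and 61849 CPM.

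The comparison of Cationorm with Control asked whether macrophage transcripts differed between the groups. None of the 10 genes passed the quasi-likelihood test of edgeR adjusted over all genes (0 of 10, against 0.00% of the 18804 genes tested), and 1 of 10, Csf1r, had an unadjusted p below 0.05, against 8.73% of all genes. DESeq2 with its defaults likewise called 0 of 10, against 0.383% of the genes to which it gave an adjusted p. The fitted change was above 0 for 5 genes and below 0 for the other 5, with a median log2 fold change of 0.03, beside 51.2% above 0 and a median of 0.01 over all tested genes. The levels of the groups overlapped in all 10 genes, beside 15.3% of all tested genes in which they did not overlap. At that share, 0 of 10 without overlap is no result about the members. The even split of signs depended on single Control libraries, and Control 2 was the highest library for 6 of the 10 genes and Control 1 the lowest for 8. Without Control 2 all 10 genes had a fitted change above 0, with a median of 0.16, and 0 of 10 passed. Without Control 1 the median moved the other way, to -0.14, with 4 of 10 above 0, and 0 of 10 passed. Without Cationorm 3, 350 of 19170 tested genes were called over the whole table, 335 of them lower in Cationorm, and 0 were members. At so small a share, 0 of 10 is no result about the members.

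**Figure D1:**
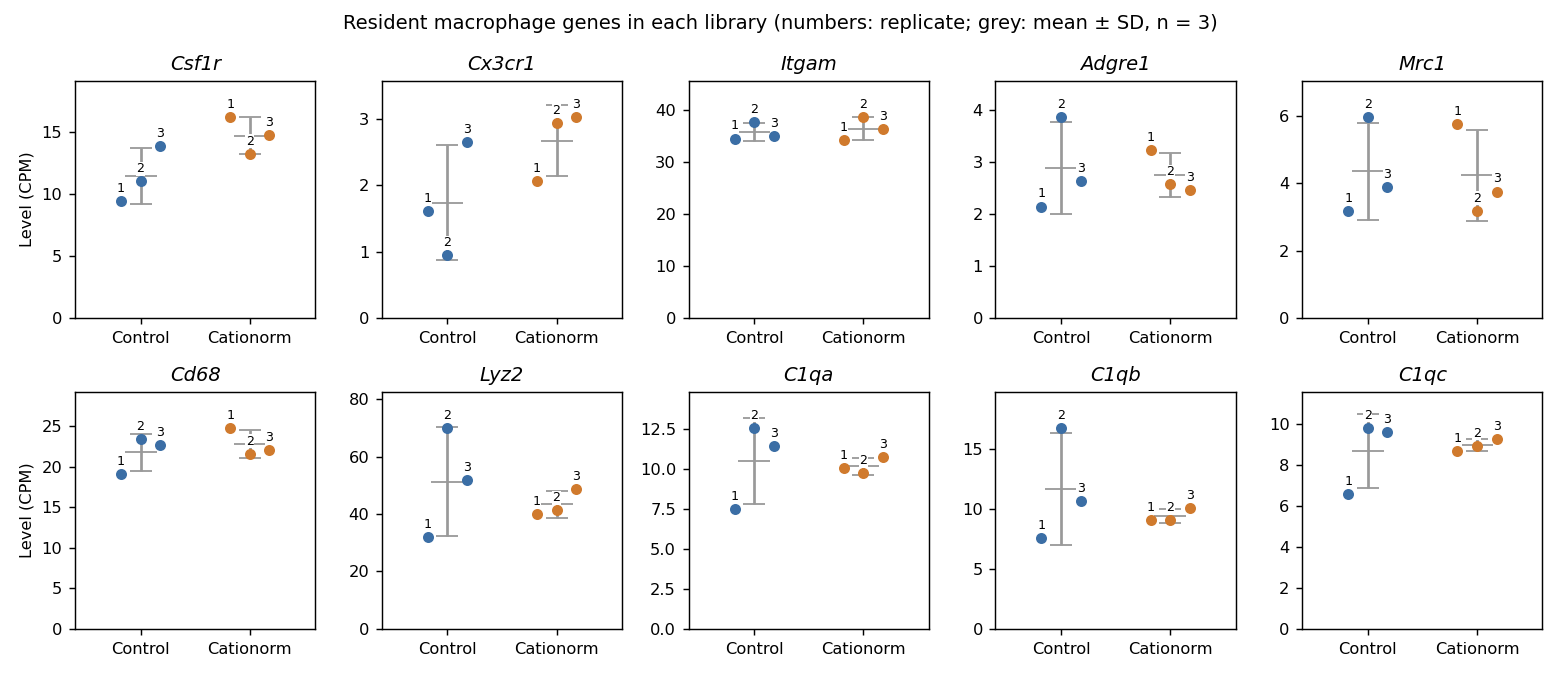
Level of each gene (CPM, vertical axes from 0) in the 3 Control and 3 Cationorm libraries, with the replicate number beside each point and the mean ± SD in grey. The groups overlap in every panel, and the Control points of Lyz2 and the C1q genes spread more widely than the Cationorm points.

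Among the surface receptors, Csf1r had the smallest p. Its levels in the Control libraries, numbered 1, 2 and 3, were 9.41, 11.02 and 13.9 CPM. In the Cationorm libraries, in the same order, they were 16.2, 13.2 and 14.7 CPM. The highest Control library lay above the lowest Cationorm library, and the other Control libraries lay below all Cationorm libraries. The fitted change was 1.32-fold (95% interval 1.003 to 1.73, log2 fold change 0.40 ± 0.17 SE), with an adjusted p of 0.550 by the edgeR test and 0.439 by DESeq2. The fitted log2 value ran from 0.27 to 0.56 when each library was left out in turn, always above 0 and never past the threshold. In the GENCODE M21 annotation, 873 bases of Csf1r exons overlap exons of Hmgxb3 on the opposite strand, and with no stated strand setting reads from that stretch cannot be assigned. Hmgxb3 itself was at 26.6 to 33.3 CPM in Control and 32.1 to 35.4 CPM in Cationorm. As with Csf1r, the iris and pigment markers were lowest in Control 1 and Control 2 and highest in Cationorm 1. The part of either in the Csf1r values was not tested.

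Cx3cr1, the receptor for the membrane-bound chemokine Cx3cl1, was the member with the largest fitted difference and the fewest counts, 33 to 113 per library. Its levels were 1.61, 0.950 and 2.66 CPM in Control and 2.06, 2.93 and 3.03 CPM in Cationorm. Control 3 lay within the Cationorm range, and Control 2 was the lowest of all. The fitted change of 1.58-fold had a 95% interval of 0.855 to 2.90 and did not pass (edgeR adjusted p = 0.569). Microglia of the retina also make Cx3cr1. Their receptor P2ry12 was at 0.714, 0.691 and 0.809 CPM in Control and 0.246, 0.311 and 0.486 CPM in Cationorm, with no overlap (lower in Cationorm without overlap, 8.90% of all genes) and in the opposite direction to Cx3cr1, and did not pass either (adjusted p = 0.550).

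Itgam, the αM chain of the integrin known as CD11b or Mac-1, was the steadiest of the 10. It was at 34.5, 37.6 and 35.0 CPM in Control and 34.2, 38.6 and 36.3 CPM in Cationorm. The highest library exceeded the lowest by 1.09 times within Control and by 1.13 times within Cationorm. Its fitted change of 1.04-fold had the narrowest interval of the set, 0.916 to 1.19 (adjusted p = 0.793). The annotated gene Gm49368, on the same strand, shares 3450 of the 5024 merged bases of Itgam exons. It was at 0.173 CPM or less in every library. The counting method is not stated, so how reads from that stretch were assigned is not known. The Itgam values are uncertain to that extent.

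Adgre1, which encodes the F4/80 antigen used to identify mouse macrophages, was at 2.14, 3.86 and 2.63 CPM in Control and 3.23, 2.57 and 2.46 CPM in Cationorm. Mrc1, the mannose receptor CD206, was at 3.19, 5.96 and 3.90 CPM in Control and 5.76, 3.19 and 3.76 CPM in Cationorm. Both genes were high in Control 2 and Cationorm 1, and the 4 other libraries lay below these. The intervals of the fitted change were 0.624 to 1.54 for Adgre1 and 0.588 to 1.69 for Mrc1 (edgeR adjusted p = 0.977 and 0.996).

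**Figure D2:**
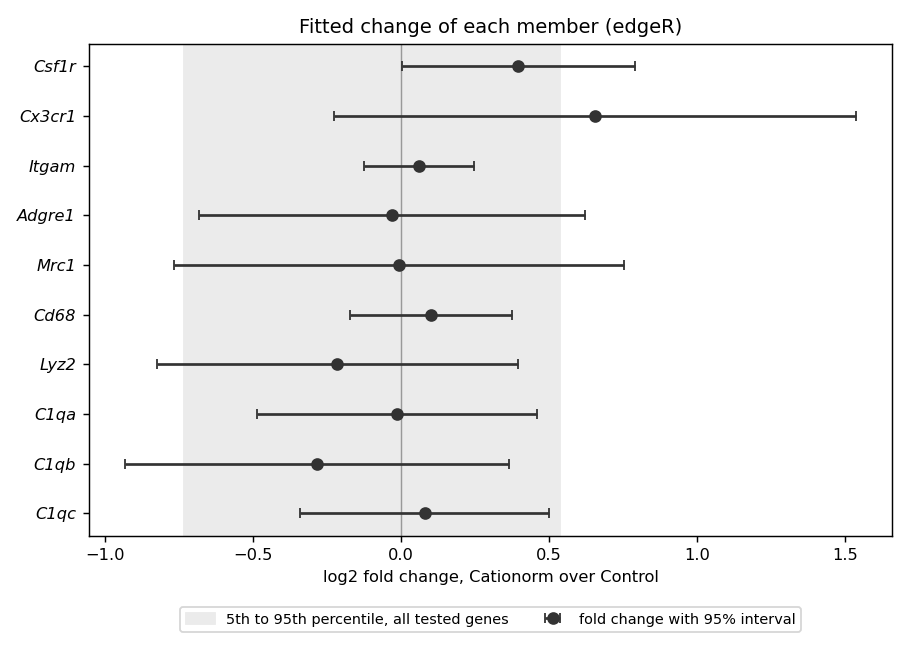
Fitted log2 fold change of Cationorm over Control for each gene (points) with its 95% interval (bars), on a grey band from the 5th to the 95th percentile of all tested genes. Of the 10 intervals, that of Csf1r alone lies above 0, and the point of Cx3cr1 alone lies outside the band.

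Of the lysosomal genes, Cd68, which encodes a glycoprotein of late endosomes, was at 19.2, 23.5 and 22.8 CPM in Control and 24.8, 21.6 and 22.1 CPM in Cationorm. Control 1 was the lowest library and the other 5 lay within 21.6 to 24.8 CPM. The fitted change was 1.07-fold (95% interval 0.888 to 1.30, adjusted p = 0.761). Lyz2, the lysozyme of macrophages and neutrophils, was at 31.9, 70.0 and 52.0 CPM in Control and 40.1, 41.3 and 48.6 CPM in Cationorm. The 3 Control libraries held both the highest and the lowest level, a range of 2.20 times, and the Cationorm libraries lay between them within 1.21 times. The fitted change was 0.861-fold (95% interval 0.564 to 1.31, adjusted p = 0.771), and its log2 value was -0.22 with all libraries and 0.07 without Control 2. Lyz2 has a close neighbouring copy, Lyz1, to which at most 2.57% of the counts of the pair were assigned in any library, so its values are uncertain to the extent that the counting split the copies.

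The C1q genes stand side by side on mouse chromosome 4 and their products assemble in equal numbers. C1qa was at 7.48, 12.5 and 11.4 CPM in Control and 10.04, 9.70 and 10.8 CPM in Cationorm. C1qb was at 7.58, 16.7 and 10.6 CPM in Control and 9.08, 9.03 and 10.02 CPM in Cationorm. C1qc was at 6.58, 9.82 and 9.63 CPM in Control and 8.68, 8.95 and 9.27 CPM in Cationorm. In each of the 3 genes Control 2 was highest, Control 3 next, then Cationorm 3, and Control 1 lowest. The Control levels spread over 1.68, 2.21 and 1.49 times for C1qa, C1qb and C1qc, and the Cationorm levels over 1.11, 1.11 and 1.07 times. Fitted changes were 0.990-fold for C1qa (95% interval 0.713 to 1.37), 0.822-fold for C1qb (0.524 to 1.29) and 1.06-fold for C1qc (0.790 to 1.41), with edgeR adjusted p of 0.985, 0.714 and 0.886.

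Within a library the C1q genes kept nearly constant proportions, except in Control 2. The ratio of C1qb to C1qc counts was 1.70 in Control 2 and between 1.01 and 1.15 in the other 5 libraries. The ratio of C1qb to C1qa counts was 1.33 in Control 2 and 0.905 to 1.01 in the others. The ratio of C1qa to C1qc counts ran from 1.08 to 1.28, with Control 2 again at the top. C1qb therefore stood out in that library beyond the other C1q genes, a description of 1 library with no replicate.

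The promoters of C1qb, C1qc and Lyz2 are shown because these genes were ordered alike across the libraries apart from Cationorm 1 and 2, and that of Itgam because it varied least. Each is the 250 bases before the RefSeq start site, read 5′ to 3′ on the strand of the gene, from the RefSeq promoter table of build GRCm38.p6, which is older than the build named for these data. Capitals mark GAGGAA on either strand (TTCCTC when read on the other), a core sequence bound by PU.1, the factor Spi1 that specifies macrophages. C1qb lies at chr4:136886201-136886450 (minus strand), C1qc at chr4:136892915-136893164 (minus), Lyz2 at chr10:117282273-117282522 (minus) and Itgam at chr7:128062390-128062639 (plus).
C1qb: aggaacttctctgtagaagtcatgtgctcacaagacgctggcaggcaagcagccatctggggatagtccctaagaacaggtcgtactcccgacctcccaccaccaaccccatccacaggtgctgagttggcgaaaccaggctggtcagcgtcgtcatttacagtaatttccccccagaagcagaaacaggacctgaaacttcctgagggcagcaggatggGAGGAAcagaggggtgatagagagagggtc
C1qc: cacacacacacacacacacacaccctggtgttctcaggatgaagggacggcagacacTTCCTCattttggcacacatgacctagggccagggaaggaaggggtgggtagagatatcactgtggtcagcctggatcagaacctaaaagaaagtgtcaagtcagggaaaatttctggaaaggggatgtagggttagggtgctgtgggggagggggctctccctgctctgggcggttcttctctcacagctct
Lyz2: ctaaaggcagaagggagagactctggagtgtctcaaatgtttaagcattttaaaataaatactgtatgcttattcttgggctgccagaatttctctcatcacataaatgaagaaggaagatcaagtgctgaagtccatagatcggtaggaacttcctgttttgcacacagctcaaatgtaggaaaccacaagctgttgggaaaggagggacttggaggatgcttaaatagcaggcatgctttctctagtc
Itgam: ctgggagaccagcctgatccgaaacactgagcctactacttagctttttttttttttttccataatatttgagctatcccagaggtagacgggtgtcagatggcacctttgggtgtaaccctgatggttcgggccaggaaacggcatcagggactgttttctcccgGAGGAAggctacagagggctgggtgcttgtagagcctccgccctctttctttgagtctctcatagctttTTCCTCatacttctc
The sequence GAGGAA occurred 1 time each upstream of C1qb and C1qc, in opposite orientations, 2 times upstream of Itgam and 0 times upstream of Lyz2. Of the 10 genes, 7 had an entry in the promoter table (Csf1r, Adgre1 and C1qa did not), and 5 of these 7 held the sequence, beside 23.3% of the 32851 promoters of the table. A match describes these letters only.

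Across the 6 libraries the members fell into different patterns. Adgre1, Mrc1, Lyz2, C1qa, C1qb and C1qc, 6 of the 10, were each highest in Control 2 and lowest in Control 1, beside 2.99% of all tested genes. Being highest in Control 2 alone held for 22.5% of all genes. Control 1 was the lowest library for 8 of 10 members, Csf1r and Cd68 included (14.4% of all genes). The highest Control level was further from the lowest than in Cationorm for 9 of 10 members, all but Itgam (55.2% of all genes). It was more than 1.5 times the lowest for 6 of 10 in Control (29.3% of all genes) and for 1 of 10, Mrc1, in Cationorm (28.3%). Summed over the 10 genes, the level was 123, 192 and 165 CPM over the Control libraries and 154, 151 and 161 CPM over the Cationorm libraries.

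**Figure D3:**
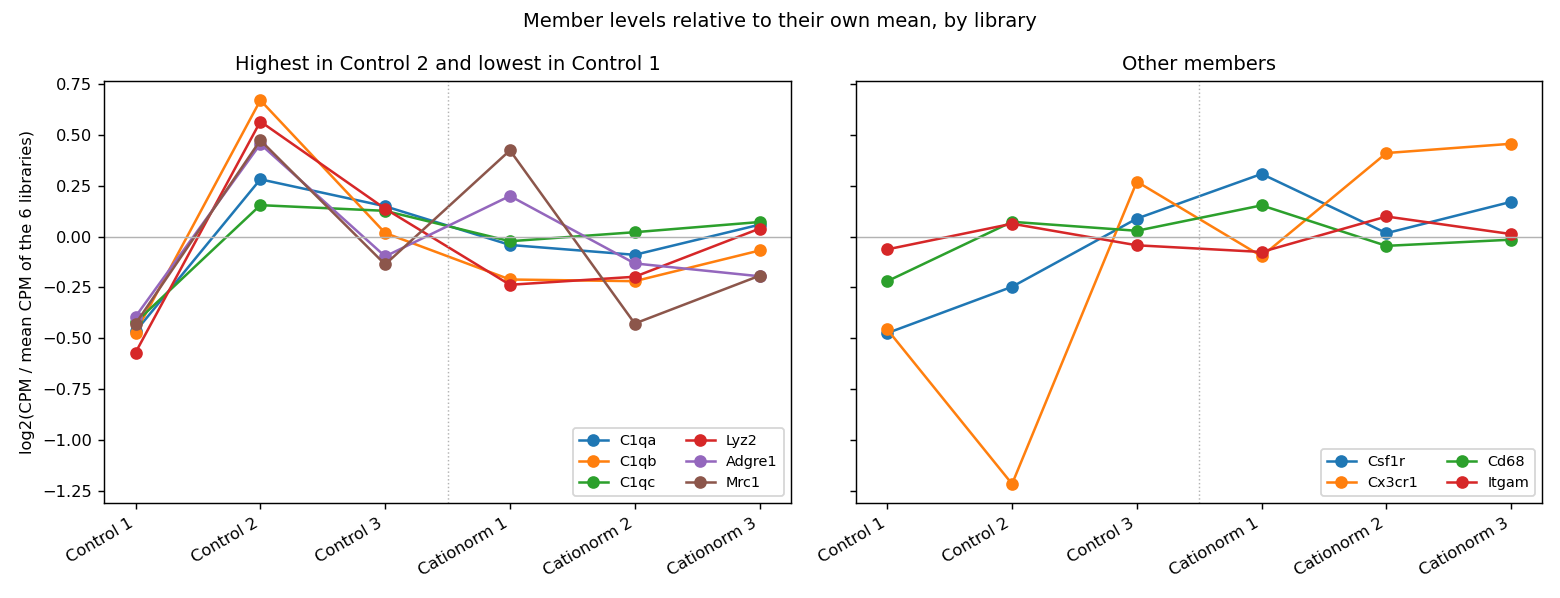
Level of each gene relative to its own mean over the 6 libraries (log2 scale), for the 6 genes that were highest in Control 2 and lowest in Control 1 (left) and the other 4 (right). Lines only join points of the same gene, and the dotted line separates Control from Cationorm.

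Other leukocyte genes showed the same Control 2 and Control 1 extremes in part. Of 10 genes expressed by all leukocytes, 5 were highest in Control 2 and 7 lowest in Control 1, beside 22.5% and 14.4% of all genes. Being lowest in Control 1 also held for 7 of 7 lens markers and 11 of 18 lysosome genes. The summed level of the leukocyte genes was 49.1, 74.6 and 67.1 CPM in Control and 71.4, 56.2 and 61.6 CPM in Cationorm. Of this, Arhgdib alone made 31.9, 35.4 and 35.8 CPM in Control and 42.0, 33.3 and 29.0 CPM in Cationorm, and it did not share these extremes. Laptm5, a lysosomal membrane protein of leukocytes, was at 4.08, 8.92 and 8.04 CPM in Control and 7.30, 6.41 and 8.02 CPM in Cationorm. Of the 8 tested MHC class II presentation genes, 6 were highest in Control 2 and 5 lowest in Control 1. Their summed level was 63.7, 110 and 86.2 CPM in Control and 81.2, 72.1 and 83.9 CPM in Cationorm, with H2-Aa at 28.9 CPM in Control 2 and 14.3 to 19.3 CPM elsewhere. The monocyte chemokine receptor Ccr2 was at 4.95 CPM in Control 2 and 0.919 to 2.81 CPM in the other libraries. Of the 8 corneal epithelium markers, 3 were highest in Control 2, beside 22.5% of all genes. Ccr2 was chosen after its values were seen, and the part of other cells in the Control 2 values was not tested.

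**Figure D4:**
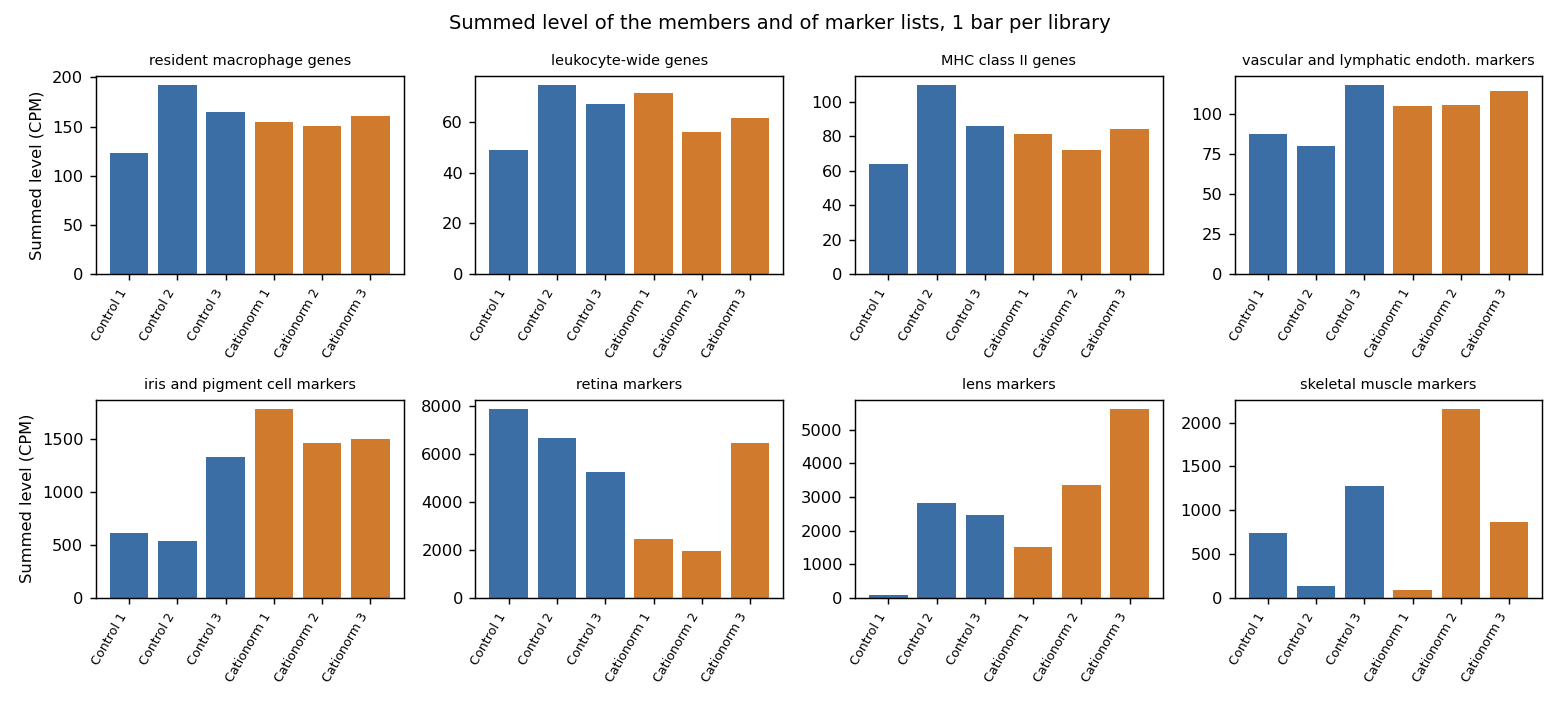
Summed level (CPM, axes from 0) of the 10 genes and of marker lists for leukocytes, MHC class II presentation, endothelium and 4 other eye tissues, 1 bar per library. The member, leukocyte and MHC class II sums are highest in Control 2 and lowest in Control 1, while the iris and pigment sum is higher in every Cationorm library than in any Control library. Arhgdib alone makes 29.0 to 42.0 CPM of the leukocyte sum.

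Levels of different genes were compared per kb of merged exons (GENCODE M21). Lyz2 was the most abundant, with a mean over the 6 libraries of 36.0 CPM per kb, followed by Cd68 at 17.7 CPM per kb. C1qa and C1qb followed at 9.93 and 9.66 CPM per kb, then Itgam at 7.17, C1qc at 4.57 and Csf1r at 2.27 CPM per kb. Adgre1 was at 0.869, Mrc1 at 0.674 and Cx3cr1 at 0.490 CPM per kb. The library ranges of neighbours in this order overlapped for C1qa and C1qb, C1qb and Itgam, Adgre1 and Mrc1, and Mrc1 and Cx3cr1, and did not overlap for the other neighbours. Itgam stood apart from its obligate partner chain Itgb2, which pairs with it on the cell surface. Itgb2 had a mean of 0.692 CPM per kb, and the ratio of Itgam to Itgb2 per kb was 8.36 to 19.5, highest in Control 1. Itgb2 was at 1.07, 2.73 and 2.43 CPM in Control and 2.28, 1.87 and 2.30 CPM in Cationorm, so it was lowest in Control 1 and highest in Control 2 like the C1q genes, while Itgam did not share that order.

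**Figure D5:**
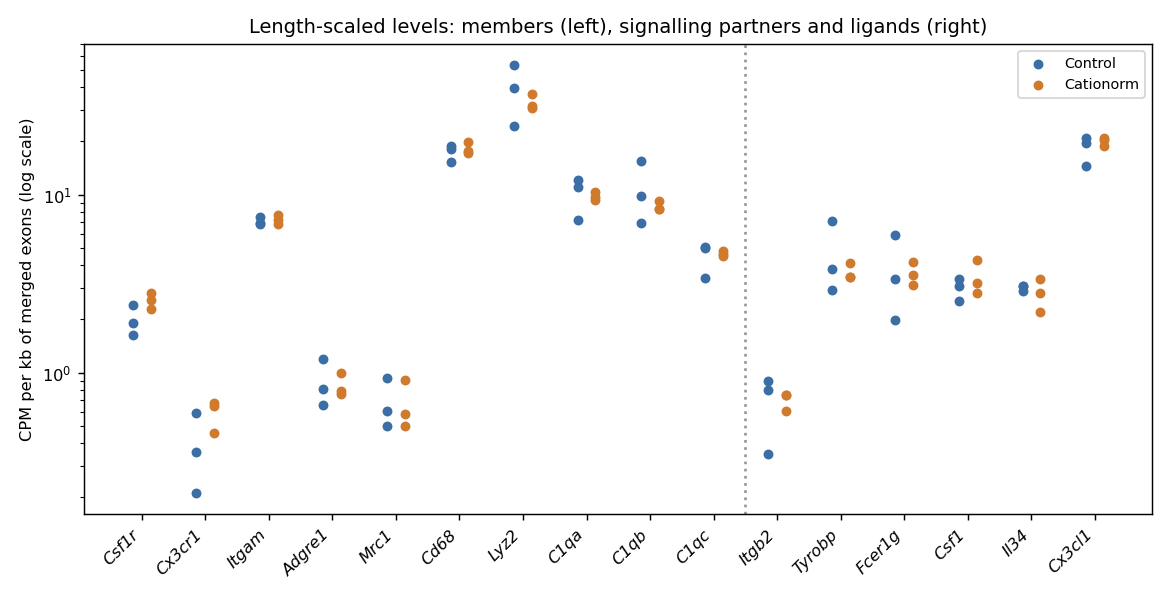
Levels in CPM per kb of merged exons (log axis) for the 10 genes, left of the dotted line, and for signalling partners and ligands, right of it, with 1 point per library. Among the members Lyz2 has the highest mean and Cx3cr1 the lowest, with Mrc1 below Cx3cr1 in Cationorm 2 and Cationorm 3, and Itgam lies above its partner Itgb2 in every library.

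The list drawn up for ligands and partners of the member receptors gave 0 of 12 tested genes past the edgeR threshold, and 0 with DESeq2. In 7 the fitted change was above 0. The list also held genes that are not ligands or partners of a member, such as Itga4, Tgfb1, Csf2 and the chains Csf2ra and Csf2rb. Csf1, a ligand of Csf1r, was at 13.4, 16.1 and 17.7 CPM in Control and 22.8, 16.9 and 14.7 CPM in Cationorm, with a log2 fold change of 0.24 ± 0.20 (SE). Il34, the other ligand, was at 5.67 to 6.02 CPM in Control and 4.30 to 6.56 CPM in Cationorm (-0.07 ± 0.20). Cx3cl1, the ligand of Cx3cr1, was at 56.7 to 81.5 CPM and 73.7 to 81.2 CPM (0.17 ± 0.13), and like its receptor it was lowest in Control 2. The integrin ligand Icam1 had a log2 fold change of 0.33 ± 0.22.

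The groups did not overlap for a pair of the tested genes of the ligand and partner list. Over all tested genes that share was 15.3%, so this count is no result about the list. The integrin chain Itga4 was at 4.34 to 6.10 CPM in Control and 2.71 to 4.27 CPM in Cationorm (-0.73 ± 0.24), and the cytokine Tgfb1 at 24.6 to 26.2 and 27.3 to 30.3 CPM (0.20 ± 0.08), each with an adjusted p of 0.550. The adaptors Tyrobp and Fcer1g, which carry signals of macrophage receptors, had log2 fold changes of -0.30 ± 0.35 and -0.03 ± 0.39. Both were highest in Control 2 and Tyrobp spread from 1.94 to 4.75 CPM within Control. The receptor chains Csf2ra and Csf2rb were at -0.06 ± 0.12 and 0.17 ± 0.55. The growth factor Csf2 reached 8 counts at most and was not tested.

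In the macrophage lists beyond the members, 0 genes passed the edgeR test. An unadjusted p below 0.05 was reached by 5 lysosome genes, by 2 each of the ligand and complement lists, by 1 each of the receptor, activation and chemokine lists, and by 0 transcription factors and subset genes. Over all tested genes that share was 8.73%, and the counts of 1 in 14 receptors, 1 in 13 activation genes and 1 in 7 chemokines are near it. DESeq2 with its defaults called 1 gene of these lists, C4b. Of 11 tested macrophage transcription factors, 9 had a fitted change above 0, among them Irf8 (0.38 ± 0.29), while Klf4, also an epithelial factor, averaged 1048 ± 37.6 CPM over the Control and 1042 ± 71.2 CPM over the Cationorm libraries (SD, n = 3 each). Of 17 tested genes of tissue-resident subsets, 14 were above 0, with 0.47 ± 0.27 for the folate receptor Folr2 and 0.18 ± 0.09 for Gas6, a bridging ligand for uptake of dying cells. The reductase Cbr2 was at 560 ± 46.9 and 552 ± 83.3 CPM. Per kb of exons, Gas6 and Cbr2 averaged 97.3 and 419 CPM, above the 36.0 CPM of Lyz2, the most abundant member. Which cells made them was not tested. Of 14 Fc and phagocytic receptors, 7 were above 0, with 0.22 ± 0.09 for the scavenger receptor Lrp1, 0.12 ± 0.07 for Tyro3 and -0.41 ± 0.20 for the IgG receptor Fcgr3. Fcgr3 was lower in Cationorm without overlap, 1 of 14 receptors beside 8.90% of all genes, which is no result about the list.

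The list of C1 and classical complement partners had 8 of 11 tested genes above 0 (median 0.05), and the groups did not overlap in 3 of these, all higher in Cationorm (6.41% of all genes). C4b, cleaved by the C1 complex, was at 29.5, 37.1 and 46.7 CPM in Control and 64.4, 53.6 and 60.6 CPM in Cationorm (0.69 ± 0.17). C2, its partner in the convertase, was at 1.91, 2.01 and 3.61 CPM and 4.62, 3.94 and 4.65 CPM (0.84 ± 0.28), and Calr, a chaperone that binds C1q, had a log2 fold change of 0.13 ± 0.05. The edgeR adjusted p was 0.550 for each, and DESeq2 called C4b (adjusted p = 0.0122) but not C2 or Calr. Serping1, the inhibitor of the C1 proteases, was at 116 ± 4.74 and 112 ± 27.8 CPM (-0.01 ± 0.17). C4b and C2 were thus higher in every Cationorm library than in any Control library, whereas the C1q genes overlapped. The iris and pigment markers were separated in the same direction, and their part was not tested.

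Of 18 lysosome and phagosome genes, 16 were above 0 (median 0.18) and 5 were higher in Cationorm with no overlap, beside 6.41% of all genes. Of the 9 iris and pigment markers, 6 were separated in the same direction, and 1 of these, Gpnmb, is also among the 5 lysosome genes. The part of pigment cells in the lysosome values was not tested. Grn, the precursor of granulins, was at 174 to 194 CPM in Control and 204 to 213 CPM in Cationorm (0.23 ± 0.07), and Npc2, a lysosomal sterol carrier, at 112 to 129 and 133 to 143 CPM (0.23 ± 0.08). Psap and Ctsl were at 0.22 ± 0.09 and 0.01 ± 0.07. Of 13 tested activation genes, 7 were above 0. Among these, Gpnmb, made by lipid-laden macrophages and by pigment cells, was at 111, 115 and 263 CPM in Control and 346, 292 and 306 CPM in Cationorm (0.99 ± 0.32), Spp1 had 0.25 ± 0.13, and Arg1 was at 127 ± 8.83 and 128 ± 4.99 CPM. Per kb of exons, Arg1 averaged 57.2 CPM, above the 36.0 CPM of Lyz2, the most abundant member, and which cells made Arg1 was not tested. Gpnmb stands in the lysosome, activation and iris and pigment lists alike. Of 7 tested monocyte-attracting chemokines, 2 were above 0, with 0.48 ± 0.19 for Cxcl12, -0.12 ± 0.18 for Cxcl16 and -0.67 ± 0.82 for Ccl5. The edgeR adjusted p of each gene named here was at least 0.550.

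Markers of other cell types were read to see which cells the samples could hold, and 0 genes of these lists or of the eye tissue lists passed the edgeR test. An unadjusted p below 0.05 was reached by 1 gene each of the monocyte, microglia, mast cell and corneal epithelium lists, 2 endothelial, 4 keratocyte, 4 retina and 8 iris and pigment markers. Beside the 8.73% over all tested genes, the counts of 1 are no result about those lists. DESeq2 called 1 gene, the epithelial chaperone Clu (adjusted p = 0.0004). Monocyte markers had 4 of 9 tested genes above 0, with Ly6c2 at 0 to 1.99 CPM, a gene chosen after its values were seen. Their sum, 578 to 635 CPM over all libraries, came mostly from Fn1, also made by fibroblasts, and Plac8. Dendritic and Langerhans cell markers had 2 of 6 above 0, and their sum was 5.79 to 7.86 CPM. Neutrophil markers had 4 of 4 above 0 and summed to 24.1 to 40.3 CPM, of which Ltf, also a tear gland product, made 21.8 to 33.4 CPM. The neutrophil elastase Elane had 0 counts in all 6 libraries and Ly6g at most 4. T, B and NK cell markers summed to 1.48 to 2.77 CPM, with 2 of 2 tested genes above 0. Mast cell markers had 2 of 6 above 0 and a sum of 143 to 221 CPM, mostly from Kit, which is not confined to mast cells. Microglia markers had 4 of 7 above 0 and summed to 133 to 153 CPM. The leukocyte-wide genes had 6 of 10 above 0 and the MHC class II genes 2 of 8.

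Markers of eye tissues were present beside these. All 12 retina markers had a fitted change below 0 (median -0.86), and all 9 iris and pigment (median 0.94), all 7 lens (median 0.99) and all 8 skeletal muscle markers (median 0.41) a change above 0. Endothelial markers of vessels and lymphatics had 6 of 8 above 0, keratocyte and corneal epithelium markers 4 of 8 each, and corneal endothelium markers 5 of 7. The share of the member transcripts that came with each of these tissues was not tested.

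The genes whose log2 CPM followed the members most closely over the 6 libraries, by Pearson's r with the mean standardised profile of the 10, were Clpp, a mitochondrial protease subunit (r = 0.991), Uvssa, a factor of transcription-coupled DNA repair (0.983), Man1a, a Golgi mannosidase (0.983), Agpat2, an enzyme of lipid synthesis (0.979), and Laptm5 (0.976). These values describe 6 libraries and 11654 candidate genes, of which 64 had r above 0.9. An r takes no account of the size of a change. Each of the 5 named genes was lowest in Control 1 and highest in Control 2. Between these libraries Clpp ran from 22.5 to 26.4 CPM, Uvssa from 20.5 to 25.7 CPM and Agpat2 from 28.8 to 33.9 CPM. Man1a ran from 8.78 to 14.6 CPM and Laptm5 from 4.08 to 8.92 CPM. Of the 5 genes, Laptm5 belongs to the leukocyte-wide list.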

How the data were processed

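Per the labels' protocols, TRIzol-extracted corneal RNA went through mRNA selection into TruSeq libraries. The deposited table holds raw read counts per gene symbol, 1 column for each of 6 libraries, per the file headers. DESeq2 and the builds GRCm39 and mm39 are listed, with no role, in the submitters' processing notes. Aligner, counter, annotation and strand: not given in the sources used here.

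Levels are CPM by library total (mean ± SD). Cationorm was tested against Control with edgeR 4.0.16 (R 4.3.3; TMM factors 0.971 to 1.02, filterByExpr, glmQLFit and glmQLFTest), with Benjamini-Hochberg adjustment at 0.05 over 18804 genes. SE and 95% intervals come from the fold change and its F statistic. The procedure was tested on simulated counts. Alternatives used DESeq2 1.42.0, limma 3.58.1 (voom), other scalings and filters, a replicate block and each library left out. The members and lists were chosen with earlier results of these data known. Named were all members and the genes of the ligand and partner list. From other lists, at most the 2 genes with the smallest p and the 2 most abundant were named. The 5 genes most like the members were also named (mean of at least 5 CPM, no predicted models). A few genes that this rule names are not reported here. Elane and Ly6g were added as defining neutrophil markers, and Hmgxb3, Gm49368 and Lyz1 for overlap or similarity with a member. Exon lengths and overlaps come from GENCODE M21 (GRCm38), an older build.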

Additional observations from a re-analysis of the deposited data

How the results depend on the processing

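Of the 10 members, 0 passed under each of the 18 alternatives run. DESeq2 called 64 genes in all with its defaults and 55 on the genes that edgeR tested, and 0 to 350 genes were called when a library was left out (1 without Control 2, 8 without Control 3, 350 without Cationorm 3). The count of members above 0, 5 of 10, became 9 with limma-voom sample weights. It was 4 to 10 with a library left out, 4 being without Control 1 and 10 without Control 2. With limma-voom the log2 fold change was above 0 for Adgre1 (0.0058) and C1qa (0.039), and with sample weights for Adgre1 (0.14), Mrc1 (0.13), Lyz2 (0.016) and C1qa (0.15). With the replicate number as a block 0 genes were called, 6 members were above 0 and C1qa was at 0.019. Deviations of same-numbered libraries correlated at -0.16, -0.29 and -0.14, and those of differently numbered libraries at -0.17 to 0.33. Within each group the deviations add to 0, so these values cannot decide whether same-numbered libraries were paired. The titles give them only a common number. With each library left out, log2 values ran from -0.21 to 0.23 for Adgre1, -0.31 to 0.28 for Mrc1, -0.47 to 0.072 for Lyz2, -0.21 to 0.13 for C1qa, -0.52 to 0.067 for C1qb, -0.089 to 0.17 for C1qc and -0.0078 to 0.091 for Itgam. The cause of these changes was not tested. Csf1r, Cd68 and Cx3cr1 stayed above 0 throughout. Cx3cr1 ran from 0.35 to 1.09. It had the fewest counts of the members, 33 to 113 per library.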
